A study of Bos taurus with 8 samples.

Results

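Edited and control bovine embryos were compared at the 8-cell stage. The comparison holds 4 of the 8 libraries of the series, 2 from RPL12-edited and 2 from control embryos, chosen by their library names, and covers 12006 of 16606 genes, those whose mean over these 4 reached 1 CPM (reads per 1000000 reads). For editing, IVF zygotes had received a cytoplasmic injection of PEmax together with its guide RNA. PEmax is a prime editor, a Cas9 nickase joined to a reverse transcriptase that copies a change out of its guide RNA. The labels call the edit A148G, with no statement of where the count begins, and name it base editing in the sample titles. Control embryos came from the same kind of in vitro fertilisation, with no word on whether they were injected. Both groups had been cultured to the 8-cell stage, and each library was made from 5 pooled embryos, so that single embryos and the share of edited alleles in them were not measured. All embryos came from slaughterhouse ovaries and frozen Holstein semen, and the labels do not say whether cumulus cells had been stripped. Nothing in the labels says that the 2 pools of a group were cultured on separate days, so the p-values measure only the spread between pools. That spread was estimated for each gene over all 8 libraries, those of the 4-cell stage included, and not from the 8-cell pools alone.

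RPL12 is a protein of the stalk base of the large ribosomal subunit, where translation factors dock. The cow embryo lives on messenger RNA laid down in the oocyte during its first divisions, and its own genome takes over transcription around the 8-cell stage. Transcript levels at this stage therefore reflect both what is left of the maternal store and what the embryo has begun to make. In a pool, fewer cells that carry a transcript and less of that transcript per cell cannot be told apart.

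The 4 libraries held 33527531 to 35122409 reads assigned to genes, from 14763 to 15422 detected genes. Across genes, on the log2 scale, the edited pair correlated at 0.977 and the control pair at 0.973. The maternal transcripts BTG4, BMP15, GDF9 and DPPA3 were detected in every library, as given below. They mark material from oocytes or early embryos and do not tell the 8-cell from the 4-cell stage, so the label of the stage was not checked by them. The pluripotency factor NANOG was near 0, at 0.359 and 0.030 CPM in the edited libraries and 0.772 and 0 CPM in the controls. Markers of somatic cells of the follicle were present in both groups and differed between them. The summed level of 32 granulosa and cumulus markers was 718 and 695 CPM in the edited libraries and 844 and 1195 CPM in the controls, so that the second control library stood apart.

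The edited libraries differed from the controls mostly by transcripts that were lower. Of the 12006 genes tested, 1887 (15.7%) were called at an adjusted p under 0.05, with 137 (1.14%) higher and 1750 (14.6%) lower in the edited libraries. Fold changes are edited minus control on log2(CPM + 1), with n = 2 libraries a group. Each has limma's standard error, which rests on the spread shared over all 8 libraries. Adjusted p-values are limma's after Benjamini-Hochberg adjustment over all 12006 genes. The median gene lay at 0.02. The genes called lower had a median of -1.70 and those called higher a median of 1.07. A change of at least 2-fold on this scale was found for 1598 genes called lower and 80 called higher. At 4-fold these counts were 595 and 3, and at 8-fold they were 89 and 0.

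**Figure D1:**
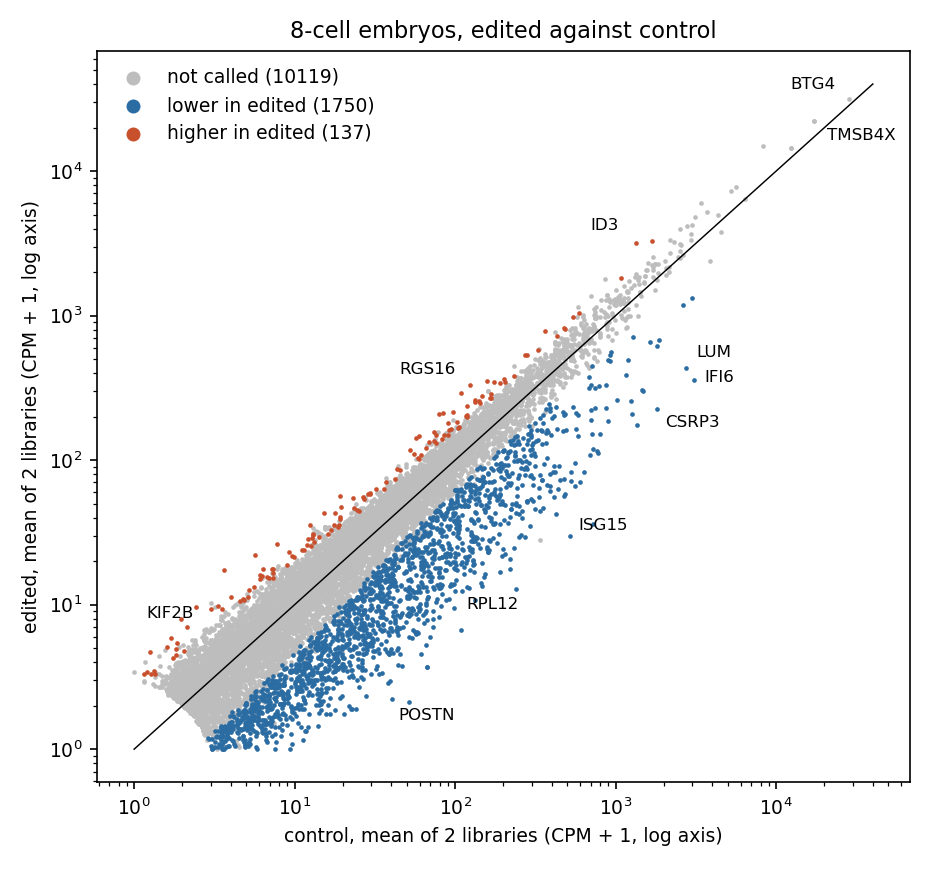
Mean CPM + 1 of the 2 control libraries (horizontal, log axis) against that of the 2 edited libraries (vertical, log axis), 1 point per tested gene, with the line of equality. The 1750 genes called lower form a broad band below the line, while the 137 called higher lie close above it and the most abundant transcripts such as BTG4 lie on or near it.

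Genes called lower were spread over the range of expression. They made up 12.4% of the 4002 genes of lowest mean level (up to 7.35 CPM), 15.8% of the 4002 in the middle and 15.5% of the 4002 above 37.6 CPM. Together the genes called lower took 5.24% and 5.18% of all CPM in the edited libraries against 14.3% and 19.0% in the controls. The genes called higher took 2.67% and 2.63% against 1.30% and 1.44%. The groups did not overlap, with edited lower, for 32.1% of all tested genes, and with edited higher for 28.2%.

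The second control library carried more of the transcripts in question than the first. Its median difference from the first, on the log2 scale, was 0.10 over all tested genes, 0.39 over the genes called lower and 0.07 over those called higher. Without control 2, 1028 genes were called, 964 of them lower, against 1746 and 1654 without control 1, 1291 and 1252 without edited 1, and 1273 and 1217 without edited 2. With the summed granulosa and cumulus level as a covariate, 563 genes were called, 532 of them lower. Over both stages this level was 695 to 718 CPM in the edited libraries and 844 to 2236 CPM in the controls. It thus separates the groups, and as a covariate it takes up part of the difference between them. A call lost with it, here or in a list below, cannot be told apart from that overlap with the groups. Without control 2 the share of lower genes among those called was 93.8%, beside 92.7% with all libraries.

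RPL12 itself was strongly lower. It stood at 14.1 and 11.9 CPM in the edited libraries and at 96.3 and 97.6 CPM in the controls, and the groups did not overlap. The log2 fold change was -2.81 ± 0.25 (adjusted p 2.86e-06), and it was -2.93 to -2.70 as each library was left out in turn. The edit is a substitution, and the deposited values count reads over the whole gene, so they do not separate edited from unedited transcripts.

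The other proteins of the large subunit moved the same way. Of 45 tested, 40 were called lower and none higher, with a median of -1.85 beside 0.02 for all genes. RPL18, a large-subunit protein, stood at 44.7 and 46.2 CPM in the edited libraries and at 277 and 429.8 CPM in the controls (-2.90 ± 0.24, adjusted p 2.27e-06). RPL8, which lies close to the catalytic centre, stood at 73.9 and 50.6 CPM in the edited libraries and at 324 and 548 CPM in the controls (-2.76 ± 0.27). RPL14 stood at 58.7 and 43.6 CPM in the edited libraries and at 257 and 349.9 CPM in the controls (-2.54 ± 0.24). In each of these 3 genes both edited libraries lay far below both controls, and control 2 lay above control 1. Across the list control 2 exceeded control 1 for 43 of 45 members, with a median of 0.50, and 37 members were still called lower without control 2. With the granulosa covariate 24 were called lower. RPL7A was the member that lay highest, at 3.41 and 3.62 against 1.86 and 3.02 CPM (0.41 ± 0.39, adjusted p 0.544), a level close to the filter. Ribosomal protein genes have many processed copies in the genome, and how reads were shared among copies is not stated, so their absolute levels are uncertain.

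Most proteins of the small subunit were also lower. Of 31 small-subunit proteins 23 were called lower and none higher, with a median of -1.49. RPS19, needed for maturation of the small subunit, stood at 23.1 and 23.4 CPM in the edited libraries and at 143 and 250.4 CPM in the controls (-2.97 ± 0.28, adjusted p 4.40e-06). RPS25 stood at 59.1 and 40.8 against 226 and 331 CPM (-2.45 ± 0.26). RACK1, the scaffold protein bound to the head of the small subunit, stood at 77.5 and 53.2 against 486 and 624 CPM (-3.08 ± 0.25, adjusted p 2.27e-06), with no overlap. A pair of abundant members did not follow. RPSA, also known as the laminin receptor, stood at 1080.3 and 1009 against 749 and 1156 CPM (0.17 ± 0.23, adjusted p 0.688), and RPS2 at 501 and 453 against 360.2 and 484 CPM (0.19 ± 0.23, adjusted p 0.642). In both genes the 2 groups overlapped. Without control 2, 18 members were called lower.

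**Figure D2:**
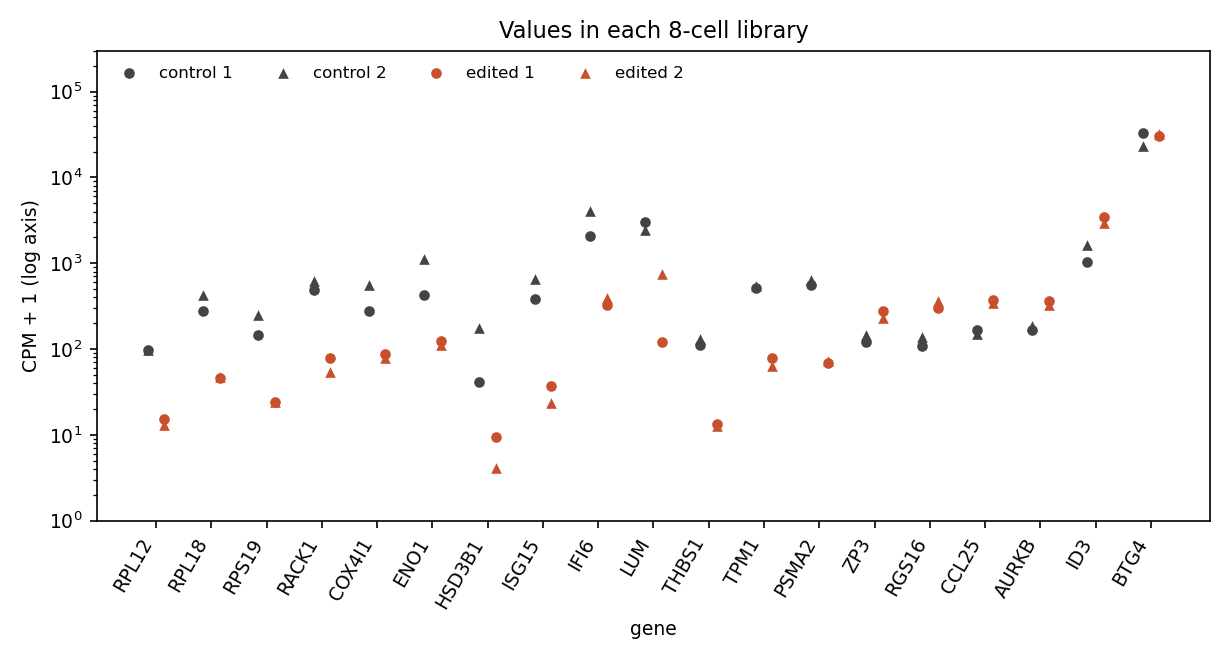
CPM + 1 (log axis) of 19 named genes in each of the 4 libraries, with controls in grey, edited libraries in red, and circles and triangles for replicates 1 and 2. RPL12, the ribosomal and respiratory genes, ISG15, IFI6, LUM, THBS1, TPM1 and PSMA2 lie lower in both edited libraries, ZP3, RGS16, CCL25, AURKB and ID3 lie higher, and BTG4 overlaps; HSD3B1 and ENO1 also differ widely between the 2 controls.

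The mitochondrial ribosome, which is built from a separate set of nuclear genes, had a median nearer to 0. Of 75 members 28 were called lower (37.3%, beside 14.6% of all genes) and none higher, with a median of -0.58. MRPL35 stood at 21.6 and 21.3 against 86.9 and 84.1 CPM (-1.94 ± 0.24, adjusted p 3.61e-05). MRPL21 stood at 13.3 and 10.8 against 49.4 and 68.1 CPM (-2.19 ± 0.28), and MRPL12, which also binds the mitochondrial RNA polymerase, at 9.11 and 5.78 against 35.6 and 62.3 CPM (-2.54 ± 0.33). None of these 3 overlapped. The count of lower members depended on single libraries, with 12 without control 2 and 16 without edited 2, and it was 5 with the granulosa covariate. MRPL4 lay highest, at 22.4 and 17.4 against 10.3 and 11.2 CPM (0.83 ± 0.35, adjusted p 0.136).

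Subunits of the respiratory chain that are encoded in the nucleus were lower in most cases. Complex I passes electrons from NADH into the chain, and 27 of its 37 tested subunits were called lower, none higher, with a median of -1.31. NDUFB10 stood at 19.2 and 16.3 CPM in the edited libraries and at 101 and 157 CPM in the controls (-2.76 ± 0.30, adjusted p 1.25e-05). Complex III had 7 of 8 called lower (median -1.95). Its Rieske iron-sulphur subunit UQCRFS1 stood at 32.5 and 21.8 CPM in the edited libraries and at 150.4 and 175 CPM in the controls (-2.56 ± 0.28, adjusted p 1.39e-05). Complex IV, the terminal oxidase, had 10 of 12 called lower (median -1.62). COX4I1, a regulatory subunit of it, stood at 86.5 and 77.6 CPM in the edited libraries and at 279.6 and 557 CPM in the controls (-2.25 ± 0.28, adjusted p 3.91e-05). The ATP synthase had 16 of 18 called lower (median -1.63), and ATP5PO, part of its peripheral stalk, stood at 244 and 212 CPM in the edited libraries and at 688 and 795 CPM in the controls (-1.70 ± 0.21, adjusted p 3.23e-05). In all 4 of these genes the groups were separate.

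The difference between the controls was wide in these complexes. Control 2 lay above control 1 for 36 of 37 complex I subunits, 8 of 8 of complex III, 11 of 12 of complex IV and 17 of 18 of the ATP synthase, by medians of 0.60, 0.78, 0.64 and 0.65. Without control 2 the counts called lower were 19, 5, 7 and 11. With the granulosa covariate they were 7, 4, 5 and 7. NDUFB6 (157 and 180.5 against 128 and 180.3 CPM, 0.15 ± 0.26, adjusted p 0.759) and COX7A2L, a factor that joins respiratory complexes (506 and 619 against 490.3 and 465 CPM, 0.23 ± 0.23, adjusted p 0.578), lay on the other side of 0.

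The 13 proteins that the mitochondrial genome itself encodes were for the most part not called. This set was looked at after its values had been seen. All 13 passed the filter, 1 was called higher and none lower (beside 1.14% and 14.6% of all genes), and the median was 0.18. Their standard errors also rest on the 4-cell controls, which lay far apart for several members. COX2 stood there at 87.0 and 688 CPM, and its 8-cell effect was -0.23 ± 0.58. A member not called is thus not shown to be unchanged. CYTB, the complex III subunit encoded there, stood at 1833 and 1873 CPM in the edited libraries and at 1088 and 1698 CPM in the controls (0.45 ± 0.46, adjusted p 0.581), and the groups did not overlap. COX1, the catalytic subunit of complex IV, stood at 2488 and 2266 CPM in the edited libraries and at 3319.7 and 4429 CPM in the controls (-0.69 ± 0.34, adjusted p 0.209). Here too the groups did not overlap, with edited lower. ATP6 stood at 1031 and 1033 against 643 and 1086 CPM (0.30 ± 0.32, adjusted p 0.591). The member called higher was ND3, at 155 and 137 against 36.5 and 80.9 CPM (1.40 ± 0.36, adjusted p 0.0113), whose adjusted p was 0.0756 without edited 1 and 0.157 without control 1. The difference between nuclear and mitochondrial subunits was not itself tested.

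Most proteins of mitochondrial import were not called. Of 23 TIMM and TOMM proteins 5 were called lower (21.7%, beside 14.6% of all genes) and none higher, with a median of 0.05 (-0.11 without control 1). TOMM5, a small subunit of the outer membrane translocase, stood at 41.4 and 33.2 against 152 and 250.1 CPM (-2.37 ± 0.28, adjusted p 2.55e-05), and TIMM8B, a chaperone of the intermembrane space, at 20.4 and 17.8 against 52.6 and 70.8 CPM (-1.63 ± 0.29). Without control 2 the count was 2, without edited 2 it was 3, and with the granulosa covariate it was 1.

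Factors that work on the ribosome held fewer lower genes than its proteins, in counts that were not tested against each other. The share called lower was 16.7% of initiation factors and 33.3% of elongation factors, beside 14.6% of all genes. The share called higher was 2.38% of initiation factors, beside 1.14% of all genes. Of 42 initiation factors 7 were called lower (4 without control 2, 4 without edited 2 and 0 with the granulosa covariate) and 1 higher, with a median of -0.17. EIF6, which keeps free large subunits from joining, stood at 64.9 and 42.4 against 123 and 200.1 CPM (-1.57 ± 0.27, adjusted p 0.000571). EIF2S2, a subunit of the factor that brings initiator tRNA, stood at 165 and 158 against 332 and 311 CPM (-0.98 ± 0.21, adjusted p 0.00315). The initiation factor called higher was EIF4E1B, a germline relative of the cap-binding protein, at 521 and 539 against 226 and 319 CPM (0.98 ± 0.22, adjusted p 0.00502, and 0.0546 without edited 2 and 0.0835 without control 1). Of 6 elongation factors 2 were called lower (1 without edited 1, edited 2 or control 2), among them EEF1B2, the exchange factor of the tRNA carrier, at 35.8 and 41.3 against 139 and 191 CPM (-2.06 ± 0.24, adjusted p 2.22e-05).

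Nucleolar factors that assemble ribosomes stood near the background. Of 51 tested, 9 were called lower and none higher, or 17.6%, beside 14.6% of all genes, and the median was 0.04. NOP16 stood at 14.5 and 12.9 CPM in the edited libraries and at 91.1 and 110.3 CPM in the controls (-2.79 ± 0.25, adjusted p 3.73e-06). GNL3, a nucleolar GTP-binding protein, stood at 43.7 and 53.4 against 135 and 133 CPM (-1.45 ± 0.23, adjusted p 0.000308). The count fell to 4 without edited 1, 5 without control 2 and 2 with the granulosa covariate. Of 58 splicing proteins 12 were called lower (20.7%, beside 14.6% of all genes, and 3 with the granulosa covariate). The lower count was smaller as each library was left out. The median was -0.16 (-0.26 to -0.0612 as each library was left out). The 1 member called higher (1.72%, beside 1.14% of all genes) was CLK3 (0.79 ± 0.21), a call lost with each of the 4 libraries left out. SRSF6, a serine and arginine rich splicing regulator, stood at 17.5 and 11.7 against 68.4 and 70.6 CPM (-2.20 ± 0.29, adjusted p 6.64e-05). SNRPB, a core protein of the spliceosomal particles, stood at 84.9 and 76.6 against 175 and 274 CPM (-1.43 ± 0.24).

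Genes of protein folding and breakdown were lower in part. Of 36 proteasome subunits 16 were called lower (44.4%, beside 14.6% of all genes) and none higher, with a median of -0.51. PSMA2, of the outer ring of the core particle, stood at 67.3 and 71.5 CPM in the edited libraries and at 562 and 643 CPM in the controls (-3.10 ± 0.25, adjusted p 2.27e-06). PSMA1 of the same ring stood at 66 and 48 CPM in the edited libraries and at 452 and 509 CPM in the controls (-3.07 ± 0.29, adjusted p 3.95e-06). For both the 2 controls lay close together and no library overlapped with the other group. PSMD4, an ubiquitin receptor of the regulatory particle, stood at 76.6 and 67.4 against 50.3 and 56.8 CPM (0.42 ± 0.25, adjusted p 0.299). Without control 2, 13 subunits were called lower, and 10 with the granulosa covariate.

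Chaperones had 15 of 32 members called lower (46.9%, beside 14.6% of all genes) and none higher, with a median of -0.58. CCT6A, a subunit of the chaperonin that folds actin and tubulin, stood at 19.2 and 17.7 CPM in the edited libraries and at 156 and 137 CPM in the controls (-2.92 ± 0.25, adjusted p 2.39e-06), and TCP1 of the same ring at 111 and 103 against 291 and 302 CPM (-1.46 ± 0.20). HSPD1, the chaperonin of mitochondria, stood at 42.9 and 43.2 against 136 and 170.5 CPM (-1.80 ± 0.23). The count was 8 without edited 1, 7 without edited 2, 7 without control 2 and 7 with the granulosa covariate. Among 46 ubiquitin-specific proteases 3 were called lower (6.52%, beside 14.6% of all genes) and none higher (beside 1.14%). Of the 46, 28 lay above 0, and the median was 0.13 (-0.14 with the granulosa covariate). The largest change was that of USP18, which removes ISG15 from proteins, at 2.27 and 4.82 against 50.8 and 69.5 CPM (-3.79 ± 0.35, adjusted p 3.73e-06).

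Most genes that respond to interferon were called lower. Interferons signal that viral nucleic acid is present, and their target genes block viral replication. Of 34 interferon-stimulated genes 30 were called lower and none higher, with a median of -2.80. ISG15, a small protein that is joined to others like ubiquitin, stood at 35.7 and 22.2 CPM in the edited libraries and at 383 and 659 CPM in the controls (-4.11 ± 0.32, adjusted p 2.27e-06). IFI6, chosen after its values had been seen, stood at 329 and 389 CPM in the edited libraries and at 2080.5 and 4031 CPM in the controls (-3.01 ± 0.32), and OAS1Y, of the family that senses double-stranded RNA, at 50.4 and 60.3 CPM in the edited libraries and at 414 and 534 CPM in the controls (-3.07 ± 0.26). In each of the 3 both edited libraries lay far below both controls, without overlap. The count was between 26 and 30 as each library was left out, 24 with the granulosa covariate, and control 2 exceeded control 1 for 23 of 34 members by a median of 0.18. PARP12 (279 and 293 against 238 and 216 CPM, 0.33 ± 0.23, adjusted p 0.388) and DHX58 (38.2 and 31.3 against 24.1 and 35.6 CPM, 0.23 ± 0.31, adjusted p 0.676) lay above 0.

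The machinery upstream of these targets was lower in part, with 44.4% of its tested members called lower, beside 14.6% of all genes. Of 18 interferon signalling components 8 were called lower and none higher (median -0.54), 4 without control 2 and 2 with the granulosa covariate. The median was -0.90 without control 1. IRF9, a transcription factor of the response to type I interferon, stood at 2.54 and 2.94 against 12.3 and 20.5 CPM (-2.18 ± 0.35, adjusted p 0.000340). IFNGR2, a chain of the interferon gamma receptor, stood at 2.93 and 3.03 against 25.2 and 25 CPM (-2.72 ± 0.32), whereas the other chain, IFNGR1, stood at 129 and 170.2 against 115 and 141 CPM (0.22 ± 0.24, adjusted p 0.614). Antigen presentation genes, many of them interferon targets, had 12 of 14 called lower (6 with the granulosa covariate), none higher, and a median of -2.28. PSME2, of the activator cap of the immunoproteasome, stood at 27.2 and 24.5 CPM in the edited libraries and at 180.0 and 183 CPM in the controls (-2.77 ± 0.25, adjusted p 3.21e-06), and PSMB10, an immunoproteasome catalytic subunit, at 3.74 and 3.98 against 26.5 and 58.5 CPM (-3.06 ± 0.38).

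Markers of stromal and theca cells, the connective tissue of the ovary, were lower in nearly every case. Of 22 listed genes 15 were tested, and 14 of these were called lower, with a median of -2.67. LUM, a proteoglycan of collagen fibres, was the most abundant of them and stood at 120.3 and 749 CPM in the edited libraries and at 3052 and 2449 CPM in the controls (-3.18 ± 0.55, adjusted p 0.000575). The 2 edited libraries differed widely, and both lay below the controls. LUM, and COL3A1 below, were chosen after their values had been seen. THBS1, a matrix glycoprotein, stood at 12.4 and 11.5 CPM in the edited libraries and at 110.1 and 131 CPM in the controls (-3.23 ± 0.25, adjusted p 2.27e-06), and VIM, the intermediate filament of mesenchymal cells, at 28.2 and 28.2 CPM in the edited libraries and at 207 and 288 CPM in the controls (-3.07 ± 0.26). SPARC, which binds collagen, stood at 60.5 and 69.8 against 347 and 432 CPM (-2.56 ± 0.24). The summed level of the list was 445 and 1123 CPM in the edited libraries and 4869 and 4924 CPM in the controls, and 11 to 13 members were called as each library was left out. COL3A1 had no read in either edited library and stood at 5.49 and 11.2 CPM in the controls. CYP17A1, the androgen-producing enzyme that defines theca cells, was at most 0.060 CPM in all 4 libraries. Whether stromal RNA entered the controls was not tested.

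Markers of granulosa and cumulus cells, which surround the oocyte, were lower in fewer cases. Of 27 tested 9 were called lower (33.3%, beside 14.6% of all genes) and none higher, with a median of -1.20. HSD3B1, which makes progesterone, stood at 8.31 and 3.09 CPM in the edited libraries and at 40.7 and 176 CPM in the controls (-3.80 ± 0.56, adjusted p 0.000140), and the 2 controls differed widely. SERPINE2, an inhibitor of proteases made by cumulus cells, stood at 58.2 and 56.3 against 171 and 176 CPM (-1.58 ± 0.27, adjusted p 0.000526). Without control 2, 6 members were called lower (median -0.54), and 1 with their own summed level as the covariate. STAR, which carries cholesterol into mitochondria, did not follow, at 174 and 213 against 154 and 143 CPM (0.38 ± 0.22, adjusted p 0.293). FOXL2, which defines granulosa cells, and LHCGR, another listed gene, were at most 0.060 CPM in all 4 libraries. Of 7 oviduct and surface epithelium markers 4 were called lower (1 without edited 2 or control 2, with a median of -1.35 in all and -0.68 without control 2), led by UPK1B, a uroplakin, at 11.7 and 12.4 against 66.5 and 90.1 CPM (-2.59 ± 0.25, adjusted p 5.44e-06), while OVGP1, the defining oviduct secretion, was at 0 in all 4. Of 5 leukocyte markers 1 was called higher, CD3E, at 10.6 and 8.75 against 4.35 and 2.84 CPM (1.23 ± 0.38, adjusted p 0.0369, and 0.212 without edited 1, 0.101 without edited 2 and 0.264 without control 2), and PTPRC was at most 0.503 CPM. None of 3 endothelial and erythroid markers was called, and 1 of 5 sperm markers, AKAP4, was called higher. The share called higher was 20% of leukocyte and 20% of sperm markers, beside 1.14% of all genes. The share called lower was 57.1% of oviduct and surface epithelium markers, beside 14.6% of all genes. The part of these cells in the lower transcripts was not tested.

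Actin and membrane-linked genes were called lower in part. The share was 48.6% of actin cytoskeleton genes and 68.4% of annexins, S100 proteins and galectins, beside 14.6% of all genes. Of 37 actin cytoskeleton genes 18 were called lower (11 with the granulosa covariate) and none higher, 12 lay above 0, and the median was -0.79 (-0.47 without control 2). The tropomyosins, which wrap the actin filament, led this list, and TPM1 stood at 77.4 and 63 CPM in the edited libraries and at 516 and 537 CPM in the controls (-2.90 ± 0.25, adjusted p 2.39e-06). TPM2 and TPM4 had log2 fold changes of -2.48 ± 0.24 and -2.60 ± 0.24. EZR, which ties actin to the membrane of early blastomeres, stood at 1153 and 973 against 684 and 811 CPM (0.51 ± 0.24, adjusted p 0.182). Of 19 annexins, S100 proteins and galectins 13 were called lower and none higher (median -1.68), 7 without edited 2 and 8 with the granulosa covariate. ANXA1, a calcium-dependent membrane binder, stood at 136 and 100.1 CPM in the edited libraries and at 706 and 736 CPM in the controls (-2.62 ± 0.28, adjusted p 1.29e-05).

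Glycolytic enzymes were called lower in part, with a large gap between the controls. Of 19 glycolytic enzymes 11 were called lower (57.9%, beside 14.6% of all genes) and none higher, with a median of -1.17. ENO1, enolase, stood at 122 and 109 CPM in the edited libraries and at 420.3 and 1110.2 CPM in the controls (-2.56 ± 0.33, adjusted p 5.04e-05), and PGK1 at 79.8 and 65.3 CPM in the edited libraries and at 308 and 642 CPM in the controls (-2.61 ± 0.34). Control 2 lay above control 1 for 18 of 19 enzymes, by a median of 1.12, and 6 enzymes were called lower without control 2 (median -0.60), 6 without edited 2, 7 without edited 1 and 4 with the granulosa covariate. LDHB, whose 2 controls were closer, stood at 219.8 and 221 against 618 and 778 CPM (-1.65 ± 0.22, adjusted p 5.60e-05). Of 22 redox enzymes 9 were called lower (40.9%, beside 14.6% of all genes) and 13 were not called (median -0.51), and their controls differed by a median of 0.0961. Among those lower was PRDX6, a peroxiredoxin, at 208 and 169 CPM in the edited libraries and at 698 and 701 CPM in the controls (-1.90 ± 0.22, adjusted p 1.87e-05).

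**Figure D3:**
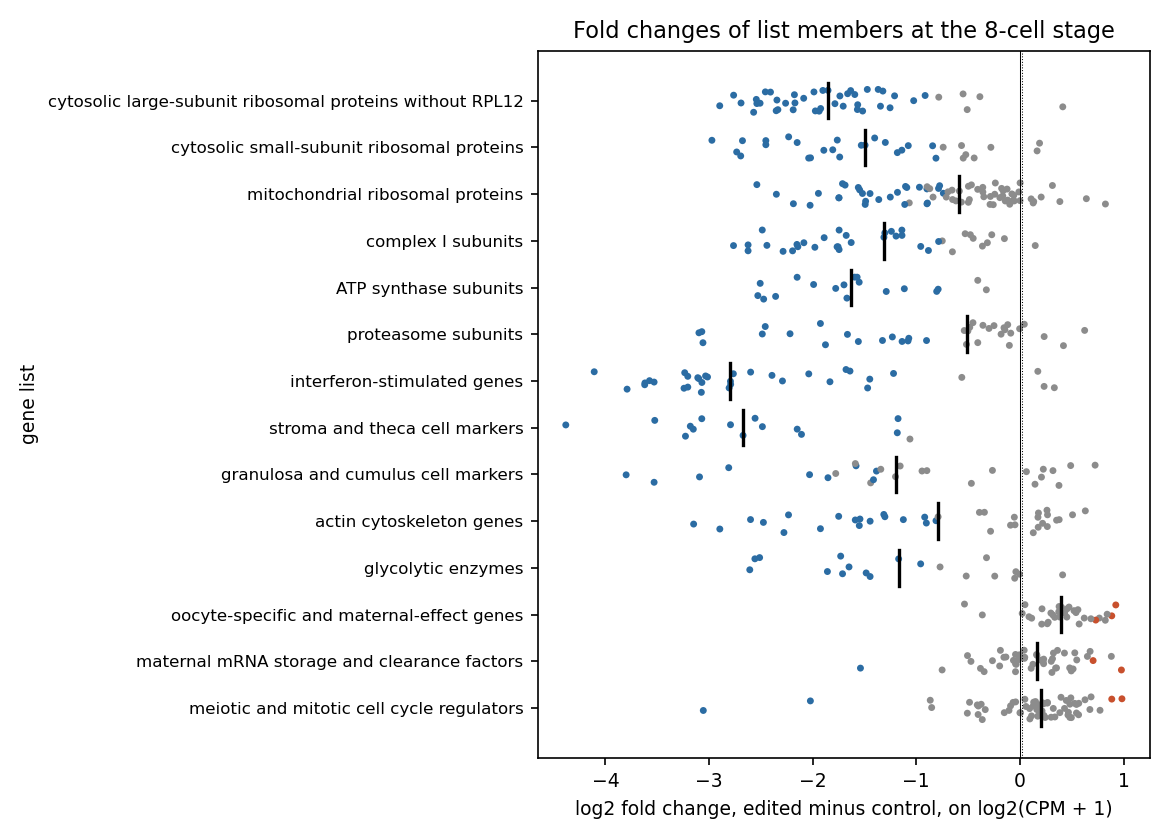
Log2 fold change (edited minus control, log2(CPM + 1)) of each tested member of 14 lists, with called members in blue (lower) or red (higher), others in grey, a bar at each list's median and a dotted line at the median of all tested genes, 0.02. Interferon-stimulated genes (median -2.80) and stroma markers (median -2.67) lie farthest left, and the oocyte list (median 0.40) lies right of 0.

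Further genes with small p-values or large folds were lower. TIMP2, an inhibitor of matrix metalloproteinases, stood at 13 and 16 CPM in the edited libraries and at 139 and 163 CPM in the controls (-3.29 ± 0.27, adjusted p 2.27e-06). CSRP3, a LIM protein best known from muscle, stood at 228 and 225 CPM in the edited libraries and at 1391 and 2240.4 CPM in the controls (-2.96 ± 0.25), and MAP1LC3C, of the LC3 family of autophagy proteins, at 58.8 and 50.3 CPM in the edited libraries and at 349 and 315 CPM in the controls (-2.59 ± 0.21). MAGED2 stood at 13.9 and 25.3 against 174 and 266 CPM (-3.45 ± 0.29). The largest fold among genes above 10 CPM was that of POSTN, periostin, of the stroma list, at 0.0897 and 2.34 against 31.2 and 48.2 CPM (-4.38 ± 0.62, adjusted p 0.000108). From the signalling list, RND3 stood at 4.78 and 12.2 against 80.8 and 113 CPM (-3.47 ± 0.36, adjusted p 8.15e-06) and RGS4, a brake on G protein signals, at 1.52 and 0 against 17.7 and 13.5 CPM (-3.37 ± 0.57, adjusted p 0.000506).

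The genes called higher formed a small and shallow set. RGS16, another inhibitor of G protein signalling, stood at 301 and 363 CPM in the edited libraries and at 108 and 137 CPM in the controls (1.43 ± 0.25, adjusted p 0.000620). RASL11A, a RAS-like protein linked to ribosomal DNA transcription, stood at 339.5 and 243 CPM in the edited libraries and at 96.1 and 119.7 CPM in the controls (1.41 ± 0.27, adjusted p 0.00135), and the chemokine CCL25 at 367 and 341 CPM in the edited libraries and at 166 and 147 CPM in the controls (1.18 ± 0.23, adjusted p 0.00141). These 3 (12%, beside 1.14% of all genes) came from a list of 25 signalling genes, and their groups did not overlap. In that list 5 were called lower (20%, beside 14.6% of all genes). POLR2J, a subunit of RNA polymerase II, stood at 794 and 773 CPM in the edited libraries and at 333 and 394 CPM in the controls (1.11 ± 0.22, adjusted p 0.00183), and TAC3, the precursor of neurokinin B, at 38.7 and 44.9 CPM in the edited libraries and at 12.3 and 16.3 CPM in the controls (1.49 ± 0.31, adjusted p 0.00260). KIF2B, a kinesin that takes microtubules apart, stood at 3.71 and 3.74 against 0.286 and 0.236 CPM (1.91 ± 0.41, adjusted p 0.00378). LOC100335177, an unnamed locus, had the smallest p-value, at 180.1 and 234 against 74.7 and 82.5 CPM (1.37 ± 0.23, adjusted p 0.000405). OR9I2, an olfactory receptor, had the largest fold, at 18.9 and 23.2 against 8.87 and 0.414 CPM (2.55 ± 0.62, adjusted p 0.00848, and 0.155 without control 2), where the 2 controls lay far apart. Of 41 named genes called higher 33 lost the call when at least 1 library was left out, as did 22 of 117 named genes called lower.

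ID3 went against its relatives. ID proteins block basic helix-loop-helix transcription factors, and the family was looked at after its values had been seen. ID3 stood at 3495 and 2906 CPM in the edited libraries and at 1035 and 1642 CPM in the controls (1.29 ± 0.26, adjusted p 0.00208), with both edited libraries above both controls. ID2 stood at 14.9 and 20.1 CPM in the edited libraries and at 39.5 and 81.9 CPM in the controls (-1.66 ± 0.32, adjusted p 0.00132). ID1 stood at 2.51 and 1.68 CPM in the edited libraries and at 5.75 and 22.9 CPM in the controls (-2.05 ± 0.49, adjusted p 0.00704, and 0.0545 without edited 2 and 0.175 without control 2).

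Most oocyte transcripts lay above 0 and were not called. Of 33 oocyte-specific and maternal-effect genes 31 lay above 0, 3 were called higher (9.09%, beside 1.14% of all genes) and none lower, with a median of 0.40. The groups did not overlap, with edited higher, for 23 of them, beside 28.2% of all genes. ZP3, a protein of the zona pellucida, stood at 273 and 229 CPM in the edited libraries and at 120.4 and 143 CPM in the controls (0.93 ± 0.26, adjusted p 0.0213). MOS, the kinase that holds the egg in meiosis, stood at 608 and 553 CPM in the edited libraries and at 233 and 421 CPM in the controls (0.89 ± 0.26, adjusted p 0.0286), and KPNA7, the oocyte importin, at 1652 and 1965 CPM in the edited libraries and at 1021 and 1151 CPM in the controls (0.73 ± 0.23, adjusted p 0.0373). These calls were fragile. The adjusted p of ZP3 and of KPNA7 was between 0.0531 and 0.188 with each of the 4 libraries left out and between 0.0874 and 0.277 with each of the 4 libraries left out, and that of MOS was 0.177 without edited 1, 0.0967 without edited 2 and 0.353 without control 1. The oocyte growth factors BMP15 (4513 and 5108 against 3297 and 2955 CPM, 0.62 ± 0.25, adjusted p 0.115) and GDF9 (911 and 1035 against 659.5 and 494 CPM, 0.77 ± 0.28, adjusted p 0.0846) missed the threshold with edited libraries above controls, and were chosen after their values had been seen. The summed level of the oocyte list was 29012 and 30742 CPM in the edited libraries and 22486 and 19441 CPM in the controls.

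Factors that store and clear maternal messages were mostly not called. The share called lower was 2.13%, beside 14.6% of all genes, and the share called higher was 4.26%, beside 1.14%. With the granulosa covariate their median was -0.03. Of 47 tested 2 were called higher (0 without edited 2 or control 1) and 1 lower, with a median of 0.16. IGF2BP3, an RNA-binding protein, stood at 384 and 376 against 253 and 213 CPM (0.71 ± 0.22, adjusted p 0.0386, and between 0.0570 and 0.272 with each of the 4 libraries left out). CAPRIN1, a protein of RNA granules, was the member called lower, at 16.4 and 14.8 against 50.4 and 44.2 CPM (-1.54 ± 0.27, adjusted p 0.000688). BTG4, the adapter that brings the deadenylase to maternal messages, was the most abundant transcript and stood at 30586 and 32009 CPM in the edited libraries and at 33193 and 23479 CPM in the controls (0.16 ± 0.27, adjusted p 0.744), with overlap.

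The other transcripts at the top of the range were not called. PTTG1, securin, stood at 13993 and 15093 against 13764 and 11128 CPM (0.23 ± 0.24, adjusted p 0.581), and its row is identical to that of LOC508043, so the reads of the pair cannot be separated. TMSB4X, which binds monomeric actin, stood at 22353 and 21706 against 17402 and 17067 CPM (0.35 ± 0.27, adjusted p 0.437), with the same values listed for TMSB4. DPPA3, a maternal protector of DNA methylation, stood at 6061 and 5901 against 3953 and 2885 CPM (0.82 ± 0.28, adjusted p 0.0602), and PAIP1, a partner of poly(A)-binding protein, at 14860.1 and 15006 against 9994 and 6642 CPM (0.87 ± 0.33, adjusted p 0.0906). UBB, polyubiquitin B, stood at 6246 and 6479 against 5797 and 6909 CPM (0.01 ± 0.22, adjusted p 0.986).

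Most cell cycle regulators were not called. Of 62 tested 2 were called higher (3.23%, beside 1.14% of all genes, and 0 without edited 1, 1 without edited 2 or control 1) and 2 lower (3.23%, beside 14.6%), with a median of 0.20. AURKB, the kinase of the chromosomal passenger complex, stood at 363 and 326 CPM in the edited libraries and at 165 and 182 CPM in the controls (0.98 ± 0.21, adjusted p 0.00380, and 0.0635 without edited 1). CDCA8, borealin of the same complex, stood at 1002 and 1072 against 566 and 606 CPM (0.82 ± 0.22, adjusted p 0.0136, and between 0.0586 and 0.126 with each of the 4 libraries left out). BIRC5, survivin, stood at 133 and 130.2 against 127 and 117 CPM (0.11 ± 0.22, adjusted p 0.783) and INCENP at 6.25 and 5.63 against 3.75 and 7.01 CPM (0.17 ± 0.43, adjusted p 0.840). CDCA8, BIRC5 and INCENP were looked at after their values had been seen. The 2 members called lower were the partners that drive entry into the cycle in somatic cells, CCND2 (1.46 and 1.20 against 14.8 and 22.7 CPM, -3.06 ± 0.34, adjusted p 1.77e-05) and CDK4 (6.40 and 5.27 against 25.2 and 28.2 CPM, -2.02 ± 0.29, adjusted p 0.000134). Both lay below 10 CPM in the edited libraries.

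Linker histones and the TCL1 genes, also looked at after their values had been seen, held further higher members. Of 7 linker histones 3 were called higher and none lower, beside 1.14% and 14.6% of all genes. H1-4 stood at 185 and 236 CPM in the edited libraries and at 91.7 and 75.3 CPM in the controls (1.32 ± 0.35, adjusted p 0.0150, and 0.120 without edited 2 and 0.0918 without control 2). H1-2 stood at 167 and 143 against 72.2 and 72.4 CPM (1.08 ± 0.30, adjusted p 0.0204, and between 0.0621 and 0.149 with each of the 4 libraries left out). H1-8, the oocyte form, stood at 979 and 1216 against 727 and 899 CPM (0.43 ± 0.25, adjusted p 0.299). TCL1A and TCL1B, coactivators of the kinase AKT, stood at 32.8 and 26.7 against 10.1 and 13.9 CPM (1.25 ± 0.33, adjusted p 0.0130, and 0.136 without edited 1 and 0.111 without control 1) and at 121 and 113 against 52.6 and 50.3 CPM (1.17 ± 0.30, adjusted p 0.0122, and 0.0874 without edited 1, 0.0589 without edited 2 and 0.0708 without control 2). Histone messages without a poly(A) tail are poorly captured by this library method, so only their polyadenylated share was seen.

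Genes of the embryo's own activation were called lower about as often as all genes. Of 23 genome activation and pluripotency genes tested, of 48 listed, 3 were called lower (13.04%, beside 14.6% of all genes, and 0 without edited 1 or control 2, 1 without control 1) and none higher, with a median of 0.36. DUXA, a homeobox gene of early activation, stood at 16.3 and 46.1 against 16.8 and 8.51 CPM (1.13 ± 0.46, adjusted p 0.124), and ZSCAN4 at 6.72 and 19.8 against 7.95 and 3.55 CPM (0.99 ± 0.54, adjusted p 0.264). Both were named for their known role and after their values had been seen, and edited 2 stood above the other 3 libraries in both. EIF1AX, an initiation factor transcribed early in the cow embryo, stood at 121 and 134 against 214 and 282 CPM (-0.94 ± 0.24, adjusted p 0.0107, and 0.106 without edited 1, 0.0501 without edited 2 and 0.151 without control 2). POU5F1, also chosen after its values had been seen, stood at 45.1 and 68.6 against 35.1 and 40.2 CPM (0.56 ± 0.32, adjusted p 0.286).

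In lists of chromatin and transcription genes, of kinesins and of m6A genes, the share called lower was 3.13% to 13.3%, beside 14.6% of all genes. The share called higher was 0 to 7.41%, beside 1.14%. Of 58 histone-modifying enzymes 4 were called lower (2 without edited 1 or control 2) and none higher (median -0.02), led by the deacetylase HDAC3 at 36.1 and 49.6 against 121 and 142 CPM (-1.61 ± 0.24, adjusted p 0.000152). Of 15 DNA methylation genes 2 were called lower (1 without edited 1, control 1 or control 2), among them TDG, a glycosylase of active demethylation, at 1.70 and 1.62 against 11.3 and 10.1 CPM (-2.13 ± 0.42, adjusted p 0.00181). Of 198 numbered zinc finger genes 14 were called lower (9 without control 2) and 2 higher (0 without edited 1), with a median of 0.05. Of 32 kinesins 1 was called lower and 1 higher. Of 48 genes of RNA polymerase II and its initiation factors 6 were called lower (0 without control 2, 1 without edited 2) and 2 higher. Of 27 m6A genes 3 were called lower (1 without edited 1, edited 2 or control 2) and 2 higher, with FMR1, a reader of the mark, at 4.75 and 9.31 against 26.7 and 27.9 CPM (-1.88 ± 0.34, adjusted p 0.000967).

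Genes of damage response were called lower at shares of 9.09% to 9.68%, beside 14.6% of all genes, and none was called higher, beside 1.14%. Of 32 genes of p53, its regulators and its targets 3 were called lower (1 without control 2) and none higher, with a median of 0.08. BTG1, an antiproliferative target, stood at 9.08 and 10.5 against 38.6 and 33.4 CPM (-1.78 ± 0.28, adjusted p 0.000302). Of 11 BCL2 family members 1 was called lower, BID, which links death receptors to mitochondria, at 3.74 and 8.24 against 18.3 and 26.8 CPM (-1.81 ± 0.36, adjusted p 0.00191). Of 31 repair genes related to prime editing 3 were called lower (1 without control 2) and none higher (median -0.05). MSH6, of the mismatch sensor that lowers prime editing yield, stood at 19.6 and 13.7 against 33.7 and 39.3 CPM (-1.10 ± 0.29, adjusted p 0.0136, and 0.182 without edited 2 and 0.125 without control 2). TREX1, an exonuclease of DNA in the cytoplasm and an interferon target, stood at 4.24 and 2.85 against 12.8 and 39.5 CPM (-2.40 ± 0.45, adjusted p 0.00106).

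**Figure D4:**
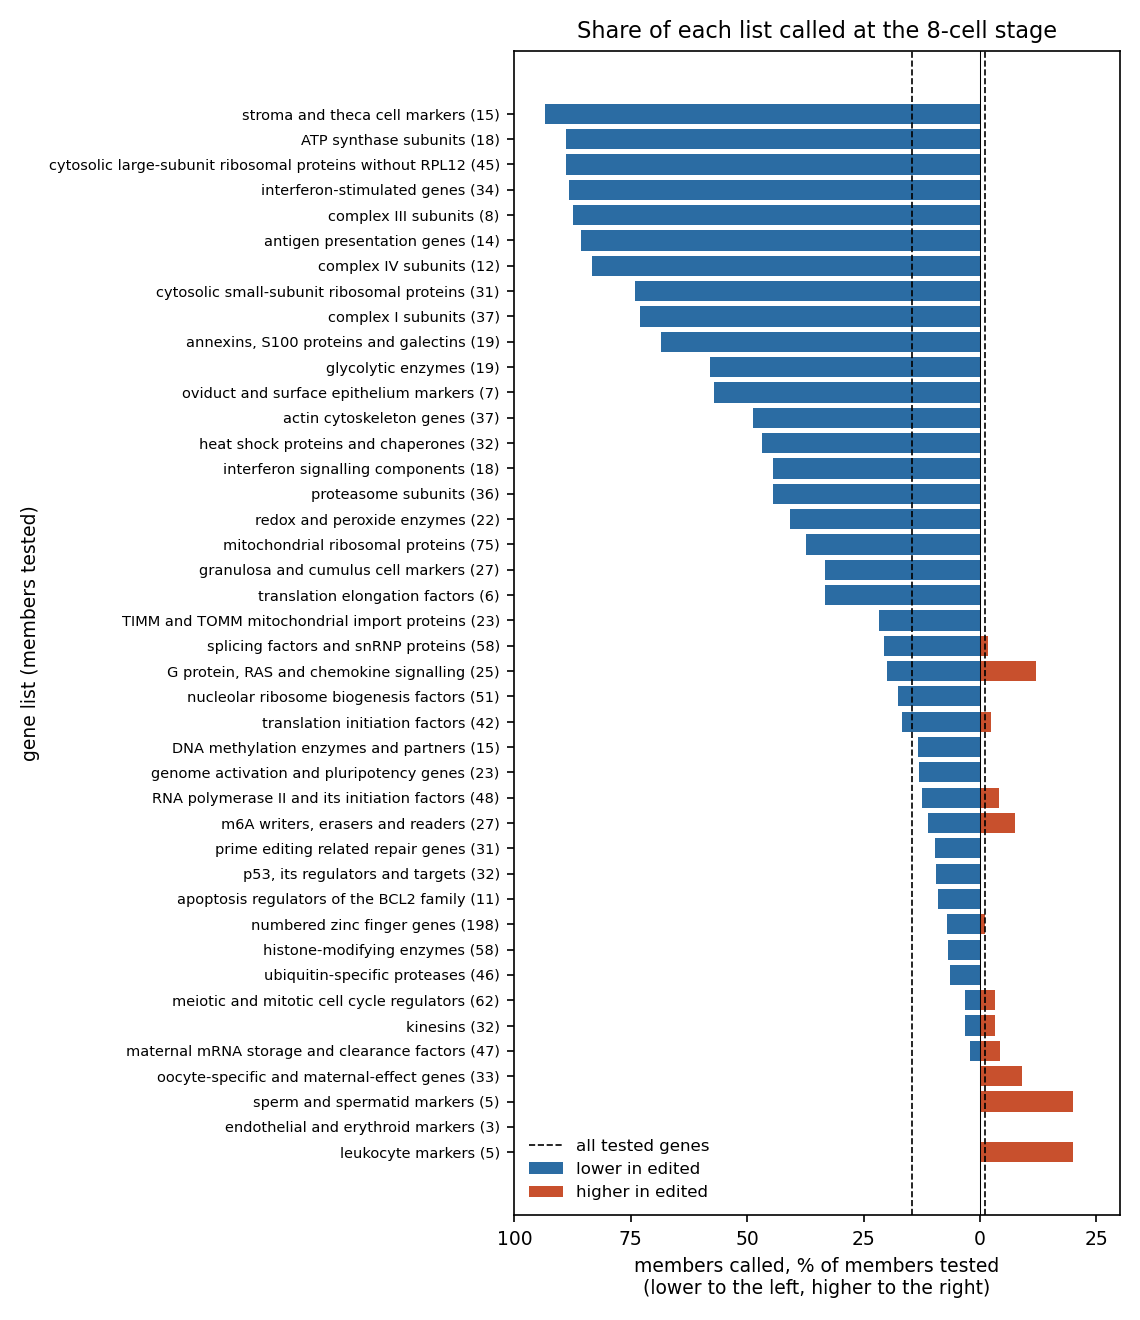
Share of tested members called lower (blue, to the left) and higher (red, to the right) in each of the 42 lists, with the number of members tested in brackets and dashed lines at the share over all tested genes, 14.6% lower and 1.14% higher. Stroma markers, ATP synthase, large-subunit ribosomal proteins and interferon-stimulated genes have the longest blue bars, and lists of 3 to 8 members move by large steps.

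Set beside the 4-cell stage, in separate pools of edited and control embryos, the lower genes were largely shared. Both effects came from the same fit, with the same standard error for a gene at both stages. The calls at the 2 stages are therefore not independent. Of the 1750 lower genes 1500 were also called lower at the 4-cell stage, where 25.2% of the same 12006 genes were called lower, and 5 were called higher. Of the 137 higher genes 49 were also called higher there (18.9% of all genes were), 82 were not called and 6 were called lower. The difference of the 2 effects was called for 479 genes (3.99%), among them 86 of the 1750 and 14 of the 137. The 4-cell effect on RPL12 was -2.41. In those pools the interferon-stimulated list had a median of -2.20, the glycolytic list -2.35 and mitochondrial ribosomal proteins -1.16. Of the 13 mitochondrially encoded genes 11 were called higher at the 4-cell stage and 1 at the 8-cell stage, and the smallest adjusted p among them for the difference of the 2 effects was 0.123 by limma. For several of them 4-cell control 1 lay far below 4-cell control 2. CYTB stood at 343 and 1533 CPM in these controls, beside 2220 and 1370 CPM in the 4-cell edited libraries, so its groups overlapped there. The granulosa marker sum in the 4-cell libraries was 716 and 716 CPM (edited) and 2236 and 1730 CPM (control), and its part in these differences was not tested.

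**Figure D5:**
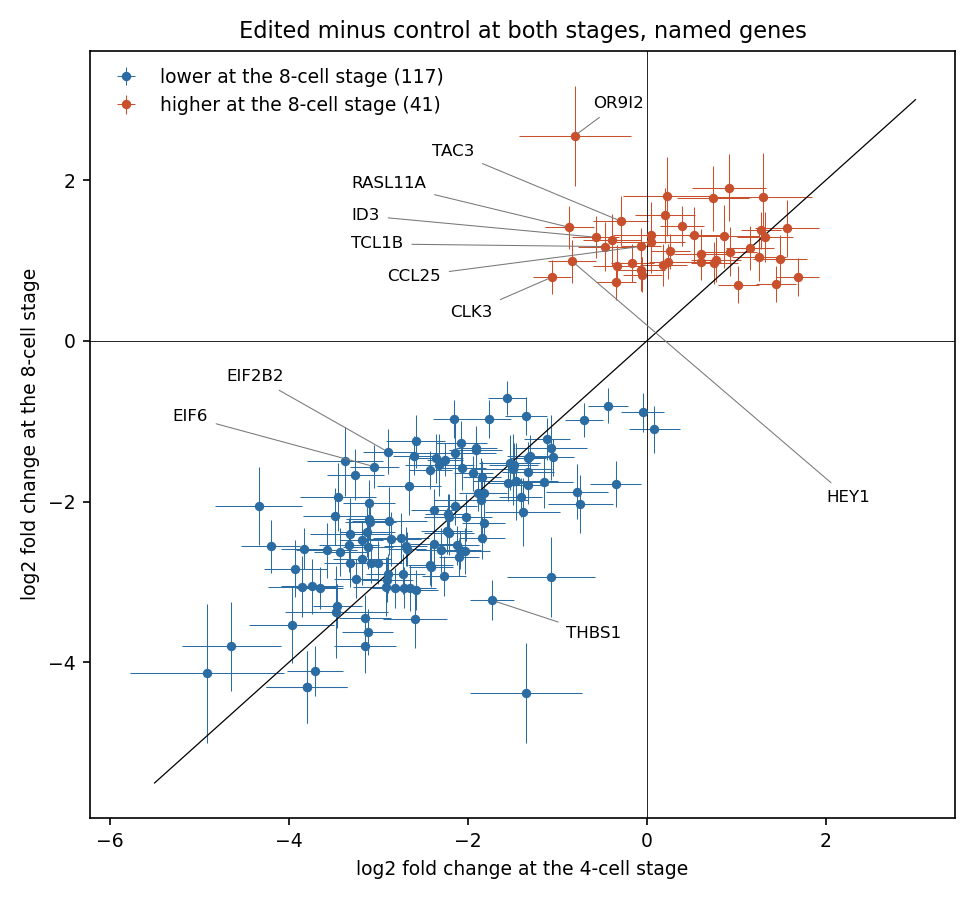
Log2 fold change, edited minus control, at the 4-cell (horizontal) and 8-cell (vertical) stage for the named genes called at the 8-cell stage, with standard errors as bars, the line of equality, and labels on genes whose 2 effects differed (adjusted p under 0.05). Lower genes (blue, 117) lie along the line, while RASL11A, ID3, CLK3 and OR9I2 (red, of 41 higher) lie above 0 at the 8-cell and below 0 at the 4-cell stage.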

How the data were processed

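RNA was measured in 8 libraries from pools of bovine embryos, by full-length cDNA amplification of polyadenylated RNA and tagmentation, per the labels' protocols. Per the submitters' processing notes the tools were Trim Galore 0.6.7, HISAT2 2.2.1 and featureCounts 2.0.1. The genome build, annotation and strand setting are not given in the sources used here. The deposited table is named for raw counts, but its values are CPM that the authors computed: each is a whole number of reads (100% within 0.05 reads) times 1 step per library. Of its 12 columns 4 match no sample given here and were not used. In the 8-cell libraries 3 reads correspond to 0.0858 to 0.0899 CPM. Intervals from reads would cover counting error only, since no molecular identifiers were used.

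Genes were kept at a mean of at least 1 CPM over the 4 libraries of the 8-cell stage. limma 3.58.1 (R 4.3.3) with an intensity trend was fitted on log2(CPM + 1) over all 8 libraries, with 1 mean per group, and the contrast of 8-cell edited minus control was adjusted by Benjamini-Hochberg, called under 0.05. Fold changes on this scale understate the change of weakly expressed genes. A permutation test over 2 against 2 libraries cannot go below 0.333. The recovered reads were tested as alternatives by edgeR 4.0.16 (quasi-likelihood) and DESeq2 1.42.0, and called 1700 and 2119 genes. The limma script was checked on simulated data. Named genes were RPL12, the 10 smallest p-values in each direction with separate groups and a mean of at least 10 CPM, the 5 largest folds, the 10 most abundant genes, and per list up to 3 called members in each direction and up to 2 against the list's direction. The text gives a part of the genes so named, and marks other genes as chosen after their values were seen. The 42 lists and the comparison were chosen with earlier results of these data known. Symbols of 16571 of 16606 rows matched RefSeq. Of the 12006 tested rows 225 share their reads in every library with another row, so the reads of such pairs cannot be assigned to either gene.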

Additional observations from a re-analysis of the deposited data

Results flagged for a closer look

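The effect of editing differed between the stages, by limma's test of the difference itself, for 16 of the named genes. RASL11A had the 8-cell effect 1.41 and the 4-cell effect -0.87, a difference of 2.28 (adjusted p 0.0123). ID3 had 1.29 and -0.57, a difference of 1.86 (adjusted p 0.0215), and CLK3, a kinase of splicing factors, had 0.79 and -1.06, a difference of 1.85 (adjusted p 0.0116). The call of CLK3 at the 8-cell stage was lost, with an adjusted p between 0.0524 and 0.187 with each of the 4 libraries left out. OR9I2 had 2.55 and -0.80, a difference of 3.36 (adjusted p 0.0437), and its 2 control libraries at the 8-cell stage lay far apart. HEY1, a repressor downstream of Notch, had 0.99 and -0.84, a difference of 1.83 (adjusted p 0.0250).

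The 4-cell effects of ID3 and OR9I2 were not called (adjusted p 0.0852 and 0.316 by limma). The same held for 3 more higher genes. The differences were 1.78 for TAC3 (adjusted p 0.0380), 1.24 for CCL25 (adjusted p 0.0414) and 1.64 for TCL1B (adjusted p 0.0427). A loss at both stages that was smaller at the 8-cell stage was found for EIF6, with a difference of 1.48 (adjusted p 0.0419), and for EIF2B2, a subunit of the exchange factor for initiation, with 1.51 (adjusted p 0.0439). THBS1 fell more at the 8-cell stage, with a difference of -1.50 (adjusted p 0.0343).

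The remaining 5 genes were not called at the 8-cell stage. MRPL2 (1.68, adjusted p 0.0385) and BNIP3L, a mitophagy receptor (1.10, adjusted p 0.0478), were lower at the 4-cell stage. KIF5B, a motor for cargo (-1.46, adjusted p 0.0388), RDX, radixin (-1.45, adjusted p 0.0225), and the oocyte gene NLRP13 (-1.64, adjusted p 0.0422) were higher there. These are differences of 8-cell minus 4-cell log2 fold changes, each resting on 8 libraries in 4 groups of 2.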

How the results depend on the processing

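RPL12 was called lower under every alternative run at the level of single genes, with log2 fold changes from -2.93 to -2.51. The lower genes made up 84.7% to 97.0% of those called under all settings. Without 1 library, where the lone library of a group is assumed to vary like the other groups, the totals were 1028 to 1746 called, 39 to 92 higher and 964 to 1654 lower. The lowest total came without control 2. With the granulosa and cumulus level as a covariate, 563 genes were called, 31 higher and 532 lower, the cause of which was not tested. With only the 4 libraries of the 8-cell stage 322 genes were called higher, and with DESeq2 242. Same-numbered libraries had deviations that correlated at -0.08, and no label ties a number to a day or batch. With the replicate number as a block 1832 genes were called, 119 higher and 1713 lower.

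The median of the oviduct and surface epithelium markers turned to 0.29 with a filter of 5 CPM, which leaves fewer members. For 9 more of the 42 lists, with medians within 0.214 of 0, the sign changed under at least 1 alternative, so no direction can be read from them. They are the mitochondrial import, zinc finger, nucleolar, p53, DNA methylation, histone-modifying, RNA polymerase II, repair and G protein lists. With the granulosa covariate the sign changed for 7 lists. They are the mitochondrial import, nucleolar, p53 and DNA methylation lists, and also those of ubiquitin-specific proteases, kinesins and maternal message storage. No direction can be read from the latter lists either. With the filter of 5 CPM the medians were -2.91 (interferon-stimulated) and -0.83 (granulosa and cumulus). A pseudocount of 5 CPM, which damps low genes, gave -1.74 (complex III), -2.18 (interferon-stimulated), -1.54 (antigen presentation), -0.50 (granulosa and cumulus), -2.10 (stroma and theca), -0.51 (oviduct), -1.13 (annexins, S100 proteins and galectins) and 0.16 (genome activation). A pseudocount of 0.5 CPM gave -2.96 (interferon-stimulated) and -1.79 (annexins). By edgeR and DESeq2 the medians were -3.07 and -3.07 (interferon-stimulated), -1.56 and -1.56 (granulosa), -1.69 and -1.70 (oviduct), and -1.84 and -1.84 (annexins). The nucleolar median was 0.0800 with TMM factors and 0.0799 with median-of-ratios factors.

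As each library was left out, medians ranged from -0.72 to -0.42 (mitochondrial ribosomal proteins), -1.65 to -1.12 (complex I), -2.23 to -1.56 (complex III), -2.08 to -1.30 (complex IV) and -2.05 to -1.30 (ATP synthase). They ranged from -0.67 to -0.46 (proteasome), -0.88 to -0.44 (elongation factors), -0.0592 to 0.0434 (nucleolar factors), -3.00 to -2.65 (interferon-stimulated), -0.90 to -0.45 (interferon signalling) and -2.52 to -1.87 (antigen presentation). For marker lists they ranged from -1.41 to -0.54 (granulosa), -3.07 to -2.46 (stroma), 0.0872 to 0.56 (endothelial) and -1.72 to -0.68 (oviduct). For the rest they ranged from -0.83 to -0.47 (actin), -1.75 to -1.48 (annexins), -1.66 to -0.60 (glycolysis), -0.64 to -0.54 (chaperones), -0.15 to 0.10 (DNA methylation), -0.26 to -0.0612 (splicing) and -0.0860 to 0.0597 (repair). At 33527531 reads or more per library, counting error is small for genes with many reads, and the number of libraries limits the precision. It is not small where a group lies near 0. Examples are KIF2B in the controls (0.286 and 0.236 CPM), POSTN in edited 1 (0.0897 CPM) and RGS4 in edited 2 (0 CPM).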

Other observations

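Several transcription factors of later development were among the genes called higher, picked here after their values had been seen. MYF5, the myogenic factor, stood at 552 and 517 CPM in the edited libraries and at 313 and 245 CPM in the controls (0.95 ± 0.26, adjusted p 0.0182 by limma). MSX1, a homeobox gene, stood at 232 and 288 CPM in the edited libraries and at 122 and 141 CPM in the controls (0.97 ± 0.24, adjusted p 0.00813). NOTO, known from the notochord, stood at 58.5 and 57.4 against 33.3 and 23.9 CPM (1.01 ± 0.28, adjusted p 0.0190) and HEY1 at 49.5 and 42 against 22.3 and 22.6 CPM (0.99 ± 0.27, adjusted p 0.0167). In all 4 both edited libraries lay above both controls. With single libraries left out, the adjusted p of MYF5 was 0.121 without edited 1, 0.0794 without edited 2 and 0.167 without control 2, that of NOTO was 0.119 without edited 1, 0.107 without edited 2 and 0.221 without control 2, that of HEY1 was between 0.0670 and 0.179 with each of the 4 libraries left out and that of MSX1 was 0.125 without edited 2 and 0.0606 without control 1.

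Among the genes called higher were also 2 germline genes. DDX43, an RNA helicase, stood at 108 and 176 against 57.2 and 54.3 CPM (1.29 ± 0.31, adjusted p 0.00787), and MAEL, of the transposon-silencing pathway, at 657 and 948 against 474 and 497 CPM (0.70 ± 0.23, adjusted p 0.0487). The adjusted p of DDX43 was 0.152 without edited 2 and 0.0501 without control 2, and that of MAEL was 0.449 without edited 2, 0.157 without control 1 and 0.147 without control 2. AKAP4, a protein of the sperm tail, stood at 4.87 and 4.79 against 0.887 and 0.503 CPM (1.79 ± 0.54, adjusted p 0.0313, and 0.110 without edited 1, 0.105 without edited 2 and 0.140 without control 2). These values are given as a description, since the genes were picked among those called.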
